A study of Stylophora pistillata with 18 samples.

Results

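Transcripts of the reef-building coral Stylophora pistillata were compared between specimens held with the cyclic dinucleotide 3'3'-cUA and specimens held in seawater alone. The comparison uses the libraries that the column names of the deposited count table give to cUA (6) and to the seawater control (6), 12 of the 18 libraries in the series. The other 6 come from specimens held with 2'3'-cGAMP. They enter the choice of tested models, the scaling, the fitted colony term and the shared estimate of the spread. They also enter the division of the libraries given below and a short comparison. All specimens were wild-type pieces of 2 adult colonies, kept for 18 h either with 250 µM 3'3'-cUA added to the seawater or in plain seawater, with 3 libraries per colony and treatment. Libraries are named by treatment, labelled colony and specimen letter, as in cUA 2A. RNA was taken from whole specimens, so a change in the cells of a type and a change in RNA per cell cannot be told apart. The sources do not say whether specimens of a colony were handled independently, so p-values reflect how far these specimens varied, which may be technical. With pieces of only 2 colonies, they do not extend to other colonies.

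Cyclic dinucleotides are second messengers of innate immunity. In animals, cGAS and related cGAS-like receptors make them after sensing foreign nucleic acid, and in vertebrates the product of cGAS binds the receptor STING, which switches on interferon and other defence genes. Corals and other cnidarians carry STING and many cGAS-like receptors without an interferon system of the vertebrate kind. 3'3'-cUA joins a uridine and an adenosine nucleotide, and the study asked how a dinucleotide of this family, added from outside, alters coral transcripts.

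The table holds counts for 29419 gene models, each a predicted protein-coding gene with a position in the deposited annotation. Total counts ran from 24307409 to 34361709 in the cUA libraries and from 27090845 to 41800393 in the control libraries. The 21375 models with enough counts were tested. Of all models, 13548 could be tied to a RefSeq symbol through a protein accession, and all but 1 of those symbols are LOC numbers with no description. The models below are therefore identified by symbol, position and structure, and no function is given to them. Levels are given as CPM, read counts brought to a common library size and scaled by TMM (a correction for composition), and are not divided by length unless "per kilobase of coding length" is written. A model "rose" or "fell" where its adjusted p in edgeR's quasi-likelihood test was below 0.05.

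The libraries did not fall apart by labelled colony. Models with a jump of at least 2 on the log2 scale between a high and a low block of libraries, each of at least 3 libraries, were collected after the data had been seen. In 145 of them the same 9 libraries stood against the other 9, and in 32 the cUA and cGAMP libraries stood against the controls. No other pattern had more than 3. The first 9, called set P here, were cUA 1C, 2A and 2B, control 1B and 1C, and cGAMP 1A, 1B, 1C and 2C. The other 9, set Q, were cUA 1A, 1B and 2C, control 1A, 2A, 2B and 2C, and cGAMP 2A and 2B. Over all tested models, 711 had no overlap between the sets, which were picked from these same models for such gaps. Between the labelled colonies, given beforehand, 1 had none, and between the controls and the cUA and cGAMP libraries 868 had none.

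LOC111345559 (Spis_XP_022808584_1, plus strand of scaffold NW_019218671.1, 22869 to 24490) shows the split and was picked for that. It had 16342, 22828 and 18651 counts in the set Q cUA libraries and 21778, 23093, 21695 and 21238 in the set Q controls. In set P it had 518, 133 and 155 counts with cUA and 446 and 117 in the controls. The model thus followed the sets in both treatments and did not follow the labels. The labels of cUA 1A, 1B, 2A and 2B, control 1A and cGAMP 2C go against the colony that most libraries of their set carry. What separates the sets was not tested. Each set holds both treatments, so the response to cUA is given below with the labelled colony in the model, with the set in its place, within each set and without those 6 libraries.

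**Figure D1:**
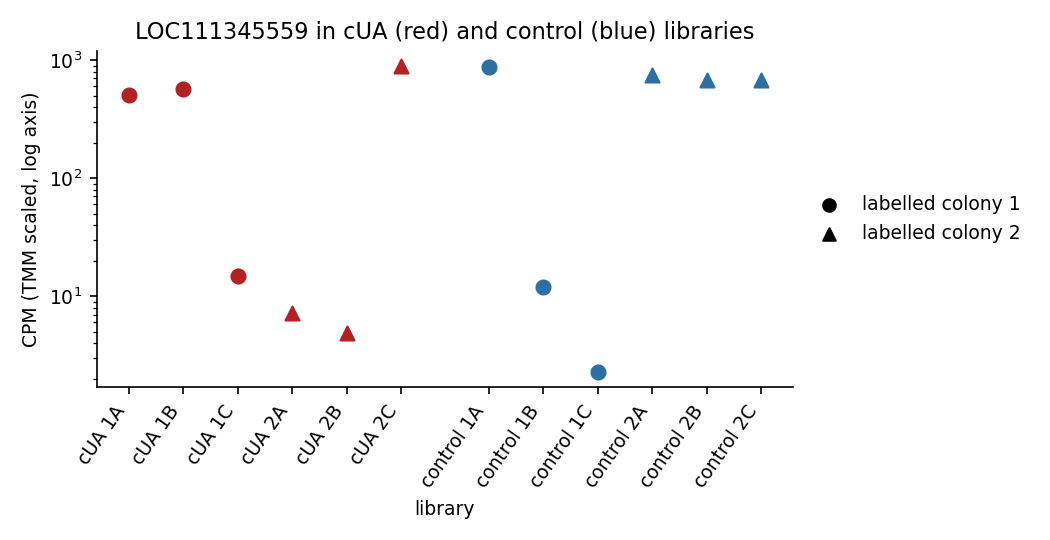
LOC111345559 in each cUA (red) and control (blue) library, as CPM scaled by TMM on a log axis; circles are libraries labelled colony 1 and triangles colony 2. Both colours and both shapes occur at the high and at the low level, so the split follows neither treatment nor label.

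With cUA, transcripts of 1263 models rose (5.91% of the 21375 tested) and those of 916 fell (4.29%), 10.2% in both directions together. The median log2 fold change was 1.63 among models that rose and -1.56 among those that fell, beside -0.02 over all tested models. The models that rose had median levels of 21.8 CPM with cUA and 6.55 CPM in the controls. Those that fell had median levels of 2.33 CPM with cUA and 6.90 CPM in the controls. More than 4-fold higher were 453 of the models that rose, and 25 were more than 16-fold higher. More than 4-fold lower were 311 of those that fell, and 34 were more than 16-fold lower.

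In many called models the libraries of the treatments did not overlap. All 6 cUA libraries lay above all 6 controls in 635 of the models that rose, and over all tested models such a separation occurred in 671 (3.14%). All 6 lay below in 397 of the models that fell, and in 468 over all tested models (2.19%). A single library held more than 50% of the cUA counts in 25 of the models that rose, and in 23 of these it was cUA 2A. Among models that fell, a single control held more than 50% of the control counts in 9. Leaving out control 1A gave the highest total of calls, 3392, and leaving out control 2A the lowest, 1369, while without control 1B the falls numbered 607. Through all 12 fits that left out a cUA or control library, 753 models stayed called as higher and 480 as lower.

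With the set in place of the labelled colony, 1543 models rose (7.22%) and 1163 fell (5.44%). Of the models called with the labelled colony in the fit, 1233 that rose and 867 that fell were among them, and the biological coefficient of variation was 0.402 in place of 0.464. The sets were drawn from these same counts, so a smaller spread and more calls with the set term are no test of the sets. Without the 6 libraries whose labels go against their set, 1105 rose (4.98% of 22209 tested) and 596 fell (2.68%), together 7.66%. Of the cUA libraries that fit holds only 1C and 2C, and of the controls all but 1A, so it rests on few cUA libraries. The sign of the fold change was the same in both sets for all 1263 models that rose and for 914 of the 916 that fell, but those calls rest on both sets together.

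The sets share no library, so a call in one was also read in the other. Set Q alone called 510 rises (2.34% of 21805 tested) and 208 falls (0.954%), 3.29% in all. Set P alone called 776 rises (3.56% of 21815) and 509 falls (2.33%), 5.89% in all. Of the 510 rises called in set Q, 502 (98.4%) were higher with cUA in set P too, where 48.7% of all models were higher, and 278 (54.5%) were called there as well. The median log2 fold change of the 510 in set P was 2.42. Of the 204 falls called in set Q and tested in set P, 197 (96.6%) were lower there, beside 51.3% of all models, with a median of -2.39, and 100 (49.0%) were called. In the other direction, 714 of 772 rises called in set P (92.5%) were higher in set Q, beside 46.9% of all models, at a median of 1.22. Of 494 falls, 474 (96.0%) were lower in set Q, beside 53.1% of all models, at a median of -1.26. Called again in set Q were 36.0% of those rises and 20.2% of those falls. The sign was thus mostly shared between the sets, while the call often was not.

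The labelled colonies, whose libraries are also separate, were read in the same way. Sets and treatments are unevenly spread over them. In colony 2 all controls are in set Q, while cUA 2A and 2B are in set P. In colony 1, control 1B and 1C are in set P, while cUA 1A and 1B are in set Q. Fits of a labelled colony, and its interaction with cUA below, thus mix treatment with set in part. Colony 1 alone called 474 rises (2.27% of 20860 tested) and 457 falls (2.19%), and colony 2 alone 392 rises (1.93% of 20300) and 79 falls (0.389%), which is 4.46% in colony 1 and 2.32% in colony 2 for both directions. From colony 1, 444 of 473 rises (93.9%) were higher in colony 2, beside 49.4% of all models, and 40.6% were called there. Of its falls, 391 of 440 (88.9%) were lower in colony 2, beside 50.6% of all models, and 10.2% were called there. From colony 2, 359 of 392 rises (91.6%) were higher in colony 1, beside 46.0% of all models, and 49.0% were called. Of its falls, 72 of 74 (97.3%) were lower in colony 1, beside 54.0% of all models, and 60.8% were called. Along either division most called models had the same sign in libraries that took no part in the call.

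Whether the size of the response differed was tested directly. For the interaction of cUA with labelled colony edgeR called 0 models. The smallest adjusted p was 0.318, and 2571 models had an unadjusted p below 0.05. DESeq2 called 227 and limma-voom with sample weights 321, and edgeR called 92 without cUA 2B. For the interaction of cUA with set edgeR called 0 as well. There the smallest adjusted p was 0.352, and 2440 models had an unadjusted p below 0.05. By edgeR no single model was thus shown to respond differently in either division, which does not show that they respond alike.

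A library can also be read in models that were called without it. For each of the 12 libraries, the models called when it was left out were taken, and its log2 ratio to the controls (CPM plus 0.5) was computed. In models that rose, the median ratio was 1.04, 1.31 and 1.20 in cUA 1A, 1B and 1C, and 1.37, 1.26 and 0.94 in cUA 2A, 2B and 2C. Read the same way, the left-out controls had medians of 0.36, 0.04 and 0.10 in 1A, 1B and 1C, and -0.08, -0.04 and 0.30 in 2A, 2B and 2C. In models that fell, the cUA medians were -0.98, -1.08, -0.96, -1.15, -0.82 and -1.08, in the same order. The control medians were -0.46, 0.23, 0.19, 0.24, -0.38 and -0.64. No cUA library came within the range of the controls in either direction, but controls 1A and 2C lay on the cUA side of the other controls in both, and control 2B in the models that fell. The controls that each left-out cUA library is set against had also chosen the models.

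**Figure D2:**
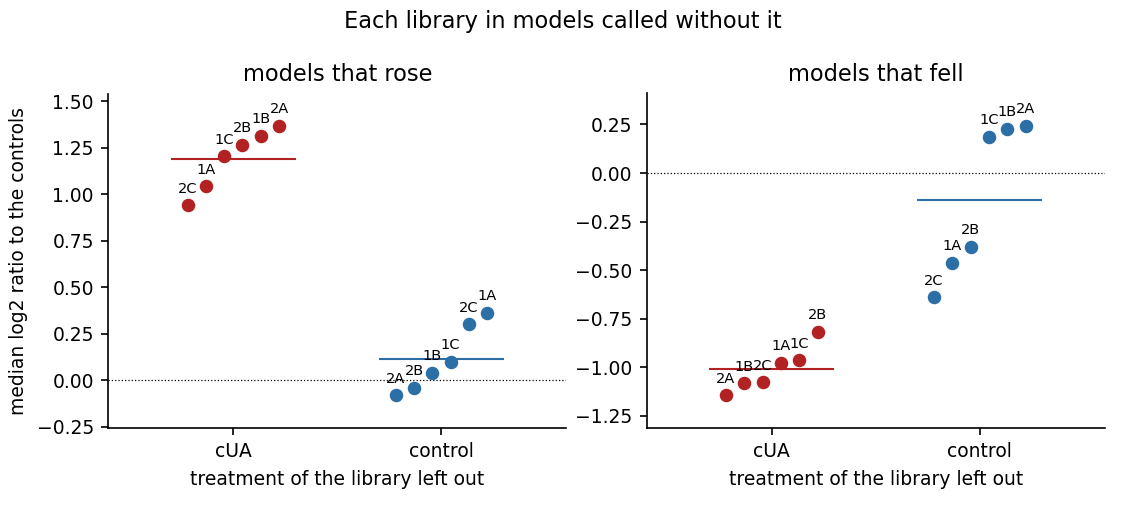
Median log2 ratio of each library to the control libraries, over the models that rose (left) or fell (right) in the fit that left that library out; each point is a library with its label, and the line is the mean of the 6 libraries of a treatment. The cUA libraries lie at 0.94 to 1.37 and -1.15 to -0.82, and the controls at -0.08 to 0.36 and -0.64 to 0.24.

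**Figure D3:**
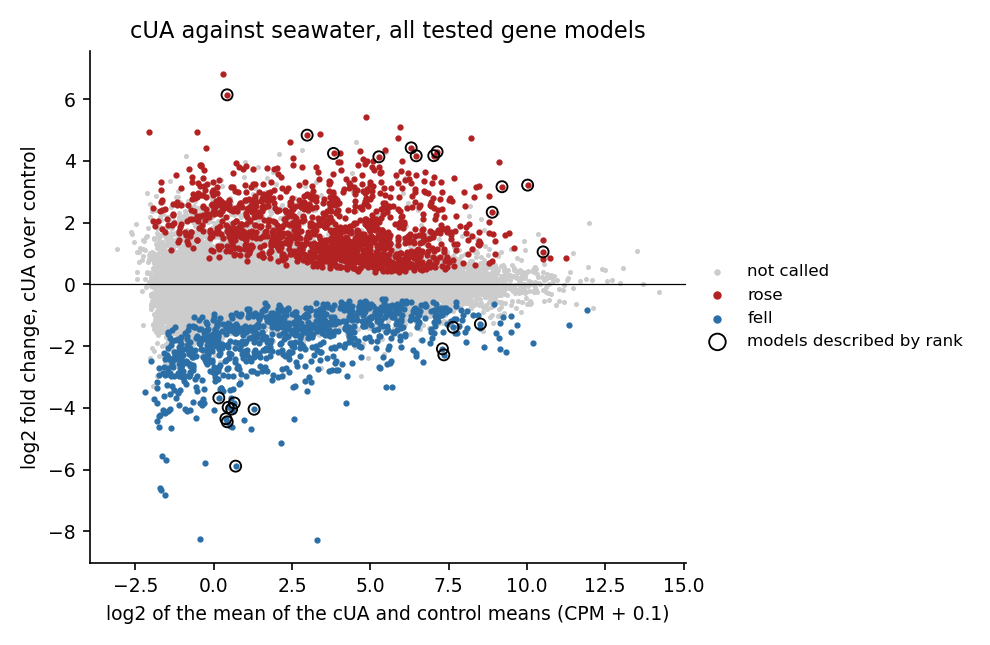
Log2 fold change of cUA over control against the log2 mean level of each of the 21375 tested models; red models rose, blue models fell and grey models were not called. Circles mark the 24 models described one by one, and the deepest falls among them are of models with few counts while most of the largest rises lie at higher levels.

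Single models were picked by a fixed rule. It asked for a symbol, a mean of at least 1 CPM, a call in every fit that left out a library, the same sign in both labelled colonies, and no overlap of cUA and control libraries. 277 models that rose and 152 that fell met it. The 8 with the largest change and the 4 with the most CPM in each direction follow. All 24 stayed called with the set term and without the 6 libraries at odds with their set. The latter fit holds only 1C and 2C of the cUA libraries.

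Among the rises, LOC111343600 (Spis_XP_022806513_1, 14 coding segments on the plus strand of NW_019218435.1, 69160 to 80612) combined a large change with a small error. It had 175, 224, 347, 430, 347 and 77.1 CPM in the cUA libraries, in the order 1A to 1C and 2A to 2C. The control libraries, in the same order here and below, had 12.8, 9.87, 12.9, 12.9, 13.6 and 20.2 CPM. Every control was under 21 CPM while the lowest cUA library, 2C, was near 77. The log2 fold change was 4.29 ± 0.37 (SE, edgeR, adjusted p = 1.53e-06), with 5.04 in set P and 3.41 in set Q.

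LOC111324251 (Spis_XP_022783496_1, a model of 786 coding bases in 1 segment on the plus strand of NW_019217841.1, 566807 to 567592) had 126, 221, 279, 372, 276 and 206 CPM with cUA. In the controls it had 12.6, 11.9, 13.2, 6.96, 13.5 and 24.2 CPM. The gap between the lowest cUA library and the highest control was wide in this intronless model too. Its log2 fold change was 4.17 ± 0.40 (SE, edgeR, adjusted p = 2.88e-06). LOC111330496 (Spis_XP_022791098_1, likewise 1 segment, on the minus strand of NW_019217936.1, 279515 to 280096) had 40.1 to 155 CPM with cUA, median 60.6, against 2.69 to 6.07 CPM in the controls, median 3.55. Its change of 4.13 ± 0.38 (SE, edgeR, adjusted p = 2.31e-06) was 3.99 in set P and 4.03 in set Q, and 3.33 in labelled colony 1 and 4.87 in colony 2 (edgeR, adjusted p of the difference between colonies = 0.379). LOC111344498 (Spis_XP_022807466_1, 4 segments on the minus strand of NW_019217800.1, 70291 to 75279) had 84.2, 130, 140, 342, 147 and 160 CPM with cUA, and 9.97, 5.51, 8.96, 8.16, 7.04 and 15.7 CPM in the controls. The cUA 2A library stood highest in both of these models. The log2 fold change of LOC111344498 was 4.16 ± 0.39 (SE, edgeR, adjusted p = 2.88e-06).

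LOC111325825 (Spis_XP_022785476_1, 2 segments on the minus strand of NW_019217860.1, 595725 to 596474) varied more among the cUA libraries, with 38.9, 93.6, 70.2, 326, 120 and 258 CPM. Its controls had 4.43, 4.98, 5.51, 3.30, 7.29 and 15.6 CPM. The groups were still apart, at a log2 fold change of 4.42 ± 0.68 (SE, edgeR, adjusted p = 0.000325). LOC111324600 (Spis_XP_022783936_1, 7 segments on the minus strand of NW_019217845.1, 925574 to 936817) had 13.1, 24.7, 20.7, 74.7, 9.97 and 16.7 CPM with cUA. Its controls had 1.95, 0.506, 0.195, 1.97, 2.09 and 2.31 CPM. The pair of set P controls, 1B and 1C, were the low ones, and the log2 fold change of 4.24 ± 0.53 (SE, edgeR, adjusted p = 4.59e-05) was 6.66 in set P and 3.12 in set Q.

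The 2 largest fold changes rested in part on cUA 2A. LOC111342923 (Spis_XP_022805782_1, 2 segments on the plus strand of NW_019218379.1, 18160 to 19301) had 0.0925, 0.325, 1.00, 11.9, 1.10 and 0.334 CPM with cUA. In the controls it had between 0 and 0.0532 CPM. That is 312 counts over the cUA libraries together and 5 over the controls. Every cUA library was above every control, but the fold change of 6.14 ± 1.28 (SE, log2, edgeR, adjusted p = 0.00449) was 4.40 without cUA 2A. LOC111335907 (Spis_XP_022797636_1, 5 segments on the plus strand of NW_019218070.1, 279153 to 282498) had 1.66, 1.98, 1.95, 78.8, 1.77 and 5.49 CPM with cUA. Its controls had 0.0798 to 0.518 CPM, with a median of 0.348. Its log2 fold change of 4.83 ± 0.96 (SE, edgeR, adjusted p = 0.00297) was 2.99 without cUA 2A (adjusted p = 0.000477). In LOC111342923 the call was lost in labelled colony 1 alone (edgeR, adjusted p = 0.103) and in set Q alone (0.0859), and in LOC111335907 in set P alone (0.0531).

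The 4 models with the most CPM among the eligible rises held up to 2401 CPM in a cUA library. LOC111325804 (Spis_XP_022785431_1, 7 segments on the plus strand of NW_019217860.1, 442353 to 445659) had 1239, 2401, 1895, 2063, 1694 and 1957 CPM with cUA. In the controls it had 218, 134, 155, 159, 180 and 386 CPM. Control 2C was the highest control here, as in several models above, and still lay under every cUA library. The log2 fold change was 3.21 ± 0.29 (SE, edgeR, adjusted p = 2.11e-06). LOC111325805 (Spis_XP_022785432_1, 7 segments on the same strand of that scaffold, 425985 to 429175) averaged 1061 ± 436 CPM with cUA and 118 ± 78.1 CPM in the controls (SD, n = 6 each). Its log2 fold change was 3.16 ± 0.39 (SE, edgeR, adjusted p = 3.97e-05).

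LOC111345249 (Spis_XP_022808261_1, 6 segments and 5964 coding bases on the plus strand of NW_019218627.1, 14867 to 22866) had 714, 1002, 487, 942, 673 and 934 CPM with cUA and 333, 41.6, 44.7, 102, 145 and 280 CPM in the controls. The set P controls, 1B and 1C, were again the lowest, and control 1A was the highest. The log2 fold change was 2.33 ± 0.45 (SE, edgeR, adjusted p = 0.00236), or 2.96 without control 1A, with 4.02 in set P and 2.04 in set Q. Its call was lost in labelled colony 1 alone (edgeR, adjusted p = 0.137). LOC111339851 (Spis_XP_022802311_1, 12 segments on the plus strand of NW_019218207.1, 245379 to 254306) changed less from a high level. It averaged 1975 ± 301 CPM with cUA and 954 ± 246 CPM in the controls (SD, n = 6 each), a log2 fold change of 1.05 ± 0.20 (SE, edgeR, adjusted p = 0.00249). Its lowest cUA library had 1519 CPM and its highest control 1308 CPM, and its call was lost in labelled colony 2 alone (edgeR, adjusted p = 0.222) and in each set alone. Per kilobase of coding length, LOC111325804 averaged 1941 CPM with cUA and 213 CPM in the controls, LOC111325805 1102 and 123, LOC111339851 769 and 372, and LOC111345249 133 and 26.4.

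The largest falls were of models with few counts, and in the cUA libraries most of them were near the limit of detection. LOC111330992 (Spis_XP_022791745_1, on NW_019217946.1, 352520 to 355023, plus strand, 4 segments) had 0.0616, 0.125, 0, 0.0544, 0.0315 and 0 CPM with cUA. In the controls it had 4.39, 3.54, 3.14, 3.92, 1.93 and 1.11 CPM. That is 9 counts over the cUA libraries together and 622 over the controls, and the log2 fold change was -5.89 ± 0.74 (SE, edgeR, adjusted p = 4.49e-05). With so few counts in the cUA libraries the size of the change is loosely fixed. LOC111344116 (Spis_XP_022807057_1, 1 segment on the minus strand of NW_019218484.1, 104622 to 105719) was the steadiest, with 0.10 to 0.252 CPM with cUA, median 0.135, and 1.68 to 3.51 CPM in the controls, median 2.59. Its log2 fold change was -4.04 ± 0.33 (SE, edgeR, adjusted p = 9.08e-07), with -4.31 in set P and -3.95 in set Q.

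The other low models had the same form. LOC111329161 (Spis_XP_022789505_1, plus strand of NW_019217912.1, 424090 to 425246) had 0 to 0.172 CPM with cUA and 1.40 to 3.81 CPM in the controls, a log2 fold change of -4.45 ± 0.62 (SE). LOC111336054 (Spis_XP_022797817_1, plus strand of NW_019218074.1, 71331 to 73999) had 0.0287 to 0.216 and 1.37 to 3.20 CPM, a change of -4.35 ± 0.60. LOC111320670 (Spis_XP_022779066_1, minus strand of NW_019217804.1, 674526 to 676058) had 0.115 to 0.436 and 1.39 to 11.1 CPM, a change of -4.04 ± 0.52. In each of these the highest cUA library was well under the lowest control, at adjusted p-values of 0.000128, 0.000125 and 5.93e-05 (edgeR). LOC111340972 (Spis_XP_022803634_1, minus strand of NW_019218263.1, 58275 to 63233) had 0 to 0.401 CPM with cUA and 1.34 to 3.11 CPM in the controls, a change of -3.98 ± 0.57 that was -4.62 without cUA 1A. LOC111336058 (Spis_XP_022797820_1, plus strand of NW_019218074.1, 77368 to 89833) had 0.0315 to 0.436 and 1.23 to 2.55 CPM, a change of -3.68 ± 0.48. The adjusted p-values of these last models were 0.000157 and 6.79e-05 (edgeR), and the call of LOC111336058 was lost in labelled colony 2 alone (edgeR, adjusted p = 0.0797).

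LOC111326875 (Spis_XP_022786692_1, 3 segments on the minus strand of NW_019217875.1, 462472 to 465182) had 0.216, 0.200, 0.172, 0.272, 0.0946 and 0.143 CPM with cUA. Its controls had 6.30, 0.452, 0.565, 2.10, 3.86 and 3.32 CPM. The set P controls, 1B and 1C, were again low and nearly met the cUA libraries. The log2 fold change of -3.84 ± 0.69 (SE, edgeR, adjusted p = 0.00126) was -1.55 in set P and -4.33 in set Q, and -2.87 without control 1A. Its call was lost in labelled colony 1 alone (edgeR, adjusted p = 0.103) and in set P alone (0.190).

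**Figure D4:**
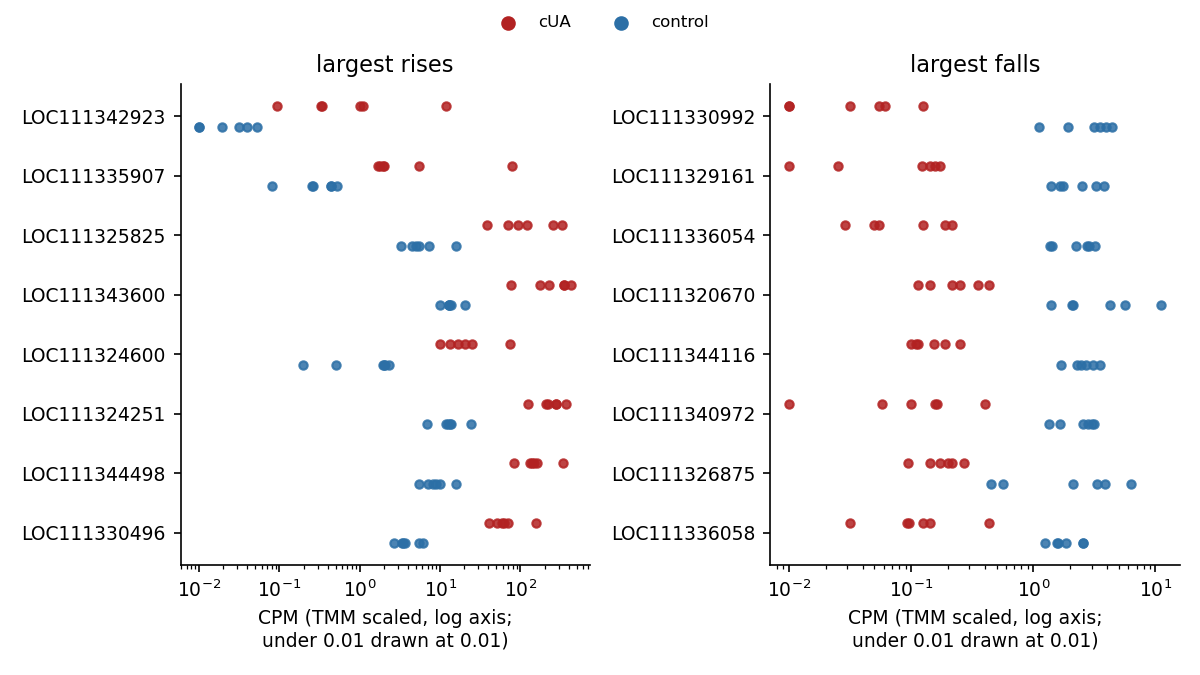
CPM of the 8 models with the largest rise and the 8 with the largest fall, with each cUA (red, upper row) and control (blue, lower row) library as a point on a log axis and values under 0.01 drawn at 0.01. The groups do not overlap in any model, a condition of the choice; cUA 2A is the point far to the right in LOC111342923 and LOC111335907.

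The 4 models with the most CPM among the eligible falls changed by smaller factors. LOC111321894 (Spis_XP_022780625_1, 13 segments on the minus strand of NW_019217816.1, 409832 to 420079) had 201, 227, 280, 127, 290 and 163 CPM with cUA. It had 363, 570, 586, 470, 607 and 503 CPM in the controls, a log2 fold change of -1.28 ± 0.24 (SE, edgeR, adjusted p = 0.00203). LOC111326898 (Spis_XP_022786719_1, 11 segments on the plus strand of NW_019217788.1, 177485 to 187425) fell to 58.8, 46.7, 57.6, 52.1, 84.0 and 35.3 CPM with cUA, against 244, 356, 331, 404, 192 and 91.3 CPM in the controls. Control 2C was the lowest control in it and lay just above the highest cUA library. The log2 fold change was -2.28 ± 0.35 (SE, edgeR, adjusted p = 0.000355).

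LOC111344049 (Spis_XP_022806989_1, 4 segments on the minus strand of NW_019218479.1, 80387 to 87525) averaged 60.2 ± 24.4 CPM with cUA and 255 ± 79.9 CPM in the controls (SD, n = 6 each), a change of -2.09 ± 0.46 (SE, log2, edgeR, adjusted p = 0.00672). LOC111334071 (Spis_XP_022795498_1, 7 segments on the plus strand of NW_019218018.1, 342218 to 351423) averaged 110 ± 49.9 CPM with cUA and 290 ± 96.6 CPM in the controls (SD, n = 6 each), a change of -1.39 ± 0.35 (SE, log2, edgeR, adjusted p = 0.0172). These falls passed over all libraries, but labelled colony 2 alone called none of the 4 abundant ones, at edgeR adjusted p-values from 0.0785 to 0.188. LOC111334071 was called in neither labelled colony and neither set alone, and LOC111321894 in neither set alone (edgeR, adjusted p = 0.0857 in set P and 0.0501 in set Q). Per kilobase of coding length, LOC111321894 averaged 202 CPM with cUA and 486 CPM in the controls, LOC111344049 132 and 560, LOC111334071 121 and 320, and LOC111326898 19.2 and 92.8.

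The single model with a symbol other than a LOC number was Cglr2 (Spis_XP_022802921_1, on NW_019218231.1, 193575 to 195716, minus strand, 1 segment), by its symbol a cGAS-like receptor. It had 4.04, 4.75, 7.23, 2.56, 7.51 and 4.20 CPM with cUA and 1.24, 5.88, 5.10, 2.43, 3.33 and 5.22 CPM in the controls. The groups overlapped, and the log2 fold change of 0.38 ± 0.35 did not pass (SE, edgeR, adjusted p = 0.578, or 0.583 with the set term).

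How the calls were spread over model structure was described with no test. Rises and falls differed in the levels at which they were called. The level of a model, here and in the classes below, is the mean of its cUA and control means. A rise thus moves a model toward a higher class and a fall toward a lower one, so part of the difference is built in. In the controls alone the medians were close, at 6.55 CPM for rises and 6.90 CPM for falls. Under 1 CPM, 2.97% of tested models rose and 5.49% fell, and from 10 to 100 CPM 7.36% rose and 3.37% fell. Models with a single coding segment, which have no intron in their coding part, rose in 5.92% and fell in 2.53% of 2924 tested. Those with 2 to 16 segments rose in 6.13% and fell in 4.65%, and those with 17 or more in 4.54% and 4.03%. Models were also divided into 3 equal classes by level. In the upper class, where 7.40% of all models rose, 12.7% of single-segment models did (49 of 387), 7.71% of those with 2 to 16 segments and 5.23% of those with 17 or more. In the lower class, where 4.20% of all models rose, the order was not kept, with 3.58%, 4.37% and 4.33%. Falls made up 5.46% of the lower class, with 2.67% of single-segment models, 5.96% of those with 2 to 16 segments and 11.8% of those with 17 or more (30 of 254). In the upper class 1.81%, 3.55% and 2.64% fell, in the same order. Longer models gather more counts per transcript, and the longest of 4 equal classes by coding length had 7.38% of models rising against 5.13% of the shortest, while the shares that fell were 4.25% in both. Median coding lengths were 1329 bases for models that rose and 1196 bases for those that fell, beside 1173 over all tested models, and median summed intron lengths were 2883 and 4052 bases beside 3562. Models predicted by AUGUSTUS rose in 6.70% and fell in 1.58% of 1328 tested, and those from Gnomon, the NCBI predictor, in 5.86% and 4.46% of 19858. Their median levels differed, at 0.915 CPM for AUGUSTUS and 10.2 CPM for Gnomon. In the lower, middle and upper class by level, 4.65%, 11.6% and 14.7% of AUGUSTUS models rose, the last of only 68. For Gnomon these shares were 4.15%, 5.89% and 7.31%. Falls were 1.14%, 2.40% and 4.41% for AUGUSTUS and 6.19%, 4.24% and 3.19% for Gnomon.

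Called models often lay next to each other. Of the 1219 models that rose and had a tested neighbour on their scaffold, 407 (33.4%) had an adjacent model that rose, while 10.4% of all models stood next to one. Of 895 that fell, 257 (28.7%) had an adjacent model that fell, beside 7.81% of all models. With neighbours within 10 kb only, the shares were 32.2%, beside 9.11% of all models, and 25.1%, beside 6.49%. Without models whose coding segments overlap, they were 33.1%, beside 10.3% of all models, and 28.6%, beside 7.81%. Among the 240 adjacent pairs that both rose, 60.0% lay on the same strand, and among the 156 that both fell, 68.6%, beside 48.8% of all 19371 adjacent pairs. Pairs pointing toward each other were 15.0% and 10.9%, beside 25.6%. Pairs with one rise and one fall numbered 55. Neighbours are not independent measurements: how reads that match several places, or overlapping models, were counted is not given in the sources used here.

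Rises formed 167 runs of 2 or more adjacent tested models, and 7 of these held 5 or more, with 45 models. Falls formed 101 runs, and 7 held 5 or more, with 48 models. The 3 longest are described one by one, in the order of the scaffolds' models.

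The longest run of rises held 9 models on NW_019217860.1 from 377407 to 445659, 68253 bases with no other model between them. Its summed level was 2447, 4865, 3657, 5995, 3576 and 4473 CPM in the cUA libraries and 574, 284, 305, 314, 397 and 908 CPM in the controls. The highest control, 2C, was well below the lowest cUA library, 1A. All 9 models had no overlap between cUA and control libraries and were called in every fit that left out a library. Their log2 fold changes ran from 2.49 to 3.36 over all libraries, from 2.37 to 4.61 in set P and from 2.26 to 3.57 in set Q. All 9 were also called without the 6 libraries at odds with their set, and in each set alone, and 8 in labelled colony 2 alone. The 9 included LOC111325804 and LOC111325805, described above.

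Strand and structure went together in the run. The 5 models on the plus strand (LOC111325841, Spis_XP_022785448_1, LOC111325803, LOC111325805 and LOC111325804) had 7 to 8 coding segments and 963 to 1131 coding bases. The 4 on the minus strand (Spis_Spis6489_1, Spis_XP_022785454_1, Spis_XP_022785434_1 and LOC111325808) had 4 to 5 segments and 534 to 684 coding bases. Per kilobase of coding length the plus-strand models averaged 93.1 to 1941 CPM with cUA and 13.1 to 213 CPM in the controls. The minus-strand models averaged 25.2 to 298 CPM with cUA and 2.56 to 36.8 CPM in the controls. The log2 fold changes were 2.83 to 3.36 on the plus strand and 2.49 to 3.32 on the minus strand. LOC111325803 (406002 to 409534) lies inside the span of Spis_XP_022785434_1 (400772 to 424192) on the other strand. It had 296, 741, 435, 1165, 494 and 662 CPM with cUA and 103, 28.7, 28.4, 36.0, 56.0 and 170 CPM in the controls, a log2 fold change of 3.18 ± 0.46 (SE, edgeR, adjusted p = 0.0002). LOC111325841 (380701 to 386205) had the largest change of the run, 3.36 ± 0.26 (SE, edgeR, adjusted p = 4.5e-07), with 130 to 229 CPM with cUA and 11.4 to 25.7 CPM in the controls. The protein sequences of these models were not used here, so whether they resemble each other was not tested. In the RefSeq assembly jaStyPist1.2 the 5 members with a symbol lie on 1 chromosome in the same order.

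**Figure D5:**
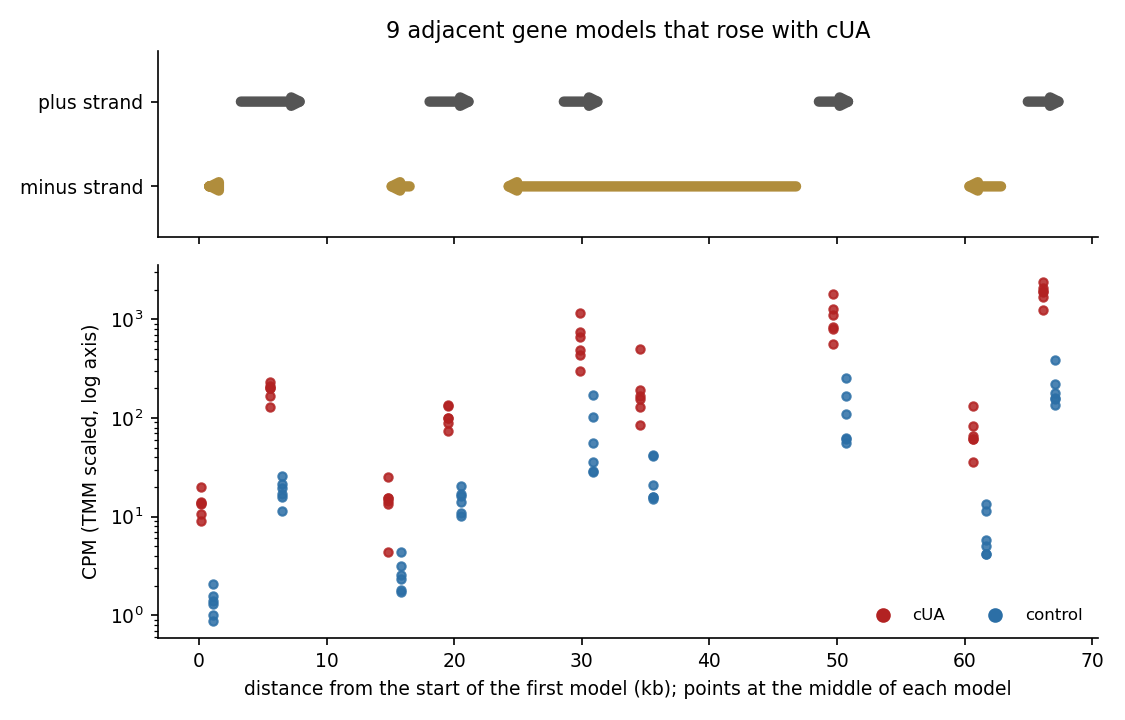
The 9 adjacent models that rose on scaffold NW_019217860.1: above, the span and strand of each model against distance from the start of the first; below, CPM on a log axis of each cUA (red) and control (blue) library at the middle of each model, with the controls shifted slightly to the right. In every model all cUA points lie above all control points.

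The longest run of falls held 11 of the 14 models on NW_019217912.1 from 424090 to 539482, the other 3 not tested. Its summed level was 23.2, 14.0, 19.5, 47.7, 24.1 and 30.7 CPM with cUA and 104, 83.3, 98.0, 102, 55.5 and 55.3 CPM in the controls. The groups did not overlap, and cUA 2A came nearest to controls 2B and 2C. Of the 47.7 CPM in cUA 2A, 34.6 came from LOC111329156 alone. The log2 fold changes ran from -4.45 in LOC111329161 to -0.97 in LOC111329156 (451393 to 462653), which had the most CPM of the run in every library. LOC111329177 (531440 to 533446, 1 segment) had 1.26, 0.901, 0.689, 1.69, 1.10 and 1.05 CPM with cUA and 14.7, 10.6, 13.4, 13.5, 5.27 and 7.28 CPM in the controls. All controls were above 5 CPM and all cUA libraries under 2, at a log2 fold change of -3.30 ± 0.41 (SE, edgeR, adjusted p = 4.11e-05). Of the 11 models, 7 had no overlap between the groups and 9 were called in every fit that left out a library. All 11 were called with the set term, but 6 without the 6 libraries at odds with their set, 5 in set P alone, 8 in set Q alone and 2 of the 10 tested in labelled colony 2 alone. The 5 lost without those libraries were LOC111329156, LOC111329132, LOC111329180, LOC111329170 and LOC111329181 (edgeR, adjusted p from 0.0526 to 0.156). Spis_XP_022789491_1 (487007 to 505744) of this run is a model of 18093 coding bases in only 2 segments, and it fell by 2.48 ± 0.39 on the log2 scale (SE, edgeR, adjusted p = 0.000407).

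The other long run of falls held 9 of the 10 models on NW_019218263.1 from 21350 to 102664, and all 9 lie on the minus strand. Its summed level was 8.78, 4.05, 9.55, 26.8, 8.55 and 14.1 CPM with cUA and 43.5, 54.3, 48.5, 54.7, 26.0 and 26.3 CPM in the controls. Here cUA 2A reached the level of controls 2B and 2C, and the other cUA libraries stayed below every control. Of the 26.8 CPM in cUA 2A, 16.6 came from Spis_Spis18343_1, the model with the smallest change of the run. The log2 fold changes ran from -3.98 in LOC111340972 to -1.42 in Spis_Spis18343_1. Of the 9 models, 6 had no overlap, 5 were called in every fit that left out a library, and all 9 were called with the set term. Without the 6 libraries at odds with their set, 5 stayed called, and Spis_Spis18343_1, Spis_Spis18344_1, LOC111340974 and Spis_Spis18341_1 did not (edgeR, adjusted p from 0.110 to 0.178). Set P alone called 4 of the 9, set Q alone 5, and labelled colony 2 alone 2 of the 8 tested. Of the other models described one by one, LOC111336054 and LOC111336058 belong to a run of 6 that fell, LOC111330496 to a run of 6 that rose and LOC111324251 to another run of 6 that rose.

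The models called with cUA were also read in the cGAMP libraries. Both comparisons share the 6 control libraries, so their fold changes move together whether or not the responses are alike, and the values are set side by side as a description. Models that rose with cUA had a median log2 fold change of 1.63 with cUA and 1.58 with cGAMP, and those that fell had -1.56 with cUA and -1.79 with cGAMP. Between cUA and cGAMP themselves, at the same dose and time, edgeR called 0 models. The smallest adjusted p was 0.132 and 1830 models had an unadjusted p below 0.05, while DESeq2 called 103 and limma-voom with sample weights 2836. With the set term edgeR again called 0. The smallest adjusted p was then 0.0854, and 2304 models had an unadjusted p below 0.05.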

How the data were processed

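RNA from 18 specimens of adult Stylophora pistillata was sequenced. Poly(A) RNA was selected and libraries kept strand information, per the labels' protocols. The deposited table gives a read count for each gene model, as whole numbers that the authors had not normalized. The tools STAR, featureCounts and DESeq2 appear in the submitters' processing notes, with versions, settings and genome build not given in the sources used here. Positions come from the deposited annotation and symbols from RefSeq's table of the assembly jaStyPist1.2, matched by protein accession in the same (4855) or another version (8693). No descriptions or protein sequences came with it, so planned counts of protein patterns were not made, and no cell type markers could be checked.

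Models that passed edgeR's filterByExpr over the 6 treatment-by-colony groups were tested with edgeR 4.0.16 (R 4.3.3; TMM factors, robust quasi-likelihood, labelled colony plus treatment, 18 libraries, 14 residual degrees of freedom) and Benjamini-Hochberg adjustment. Alternatives were other scalings and filters, DESeq2 1.42.0, limma 3.58.1 (voom with sample weights), fewer libraries and, added after the data were seen, the set of libraries as a term. Single models were chosen by the rule given with them, and the 3 longest runs and Cglr2 were added. The comparison, its members, the rule and the tests were chosen with earlier results of these data known. The depth given per library sets the precision of low counts, which is weakest under about 1 CPM. All 18 count columns were used.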

Additional observations from a re-analysis of the deposited data

Results flagged for a closer look

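Over the models described one by one, Cglr2 and the medians of left-out libraries, 54 groups of 6 libraries were examined. In 9 of them, all of single models, a library stood far from the others of its treatment by Dixon's criterion. No chance rate is set beside this. The CPM were not put on a log scale, nearly all the models were chosen from these data, and the groups share the same libraries. The library was cUA 2A in LOC111342923 (11.9 CPM), LOC111335907 (78.8 CPM), LOC111324600 (74.7 CPM), LOC111344498 (342 CPM), LOC111330496 (155 CPM) and LOC111336058 (0.436 CPM). It was the highest cUA library in all 6, also in LOC111336058, a model that fell. In LOC111325825 (15.6 CPM), LOC111343600 (20.2 CPM) and LOC111325804 (386 CPM) it was control 2C, the highest control in these models that rose. The cUA 2A library also had the lowest TMM factor, 0.619, and the highest share of counts in its 50 most abundant models, 24.4%, while control 2C had a factor of 1.17 and a share of 15.9%. The part of these values in the results was not tested beyond the fits without each library.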

How the results depend on the processing

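The counts of rises and falls, 1263 and 916 by the main test, moved by more than 1.5 times in part of the alternatives. Rises were 2715 with limma-voom and sample weights, 474 in labelled colony 1 alone, 392 in colony 2 alone, 776 in set P alone and 510 in set Q alone. Falls were 3429 with limma-voom and sample weights, 1518 with DESeq2, 592 with a stricter filter (at least 1 CPM in 12 libraries), 457 in colony 1 alone, 79 in colony 2 alone, 509 in set P alone, 208 in set Q alone and 596 without the 6 libraries at odds with their set. The fits of single colonies or sets and the fit without the 6 libraries at odds hold fewer libraries. Those of a single colony also mix treatment with set in part. The stricter filter leaves out models at low levels, and kept 3 of the 11 and 3 of the 9 models in the described runs of falls. What moved the counts was not tested. Leaving out a library gave 838 to 1977 rises and 531 to 1415 falls, and 1701 to 3237 calls in all with the set term. Upper quartile scaling turned the balance, with 1109 rises and 1149 falls, as did limma-voom. Other scalings, filters and terms stayed within 1.5 times. So did the fit of only the 12 cUA and control libraries, with 875 rises and 718 falls. It called 9 of the 11 models in the longest run of falls and 6 of the 9 in the minus-strand run of falls. The replicate block, a level for each colony and specimen letter, gave 982 rises and 692 falls, and called 6 of the 9 models in the minus-strand run of falls. Deviations of same-lettered cUA and control libraries correlated positively in 5 of 6 pairs, but over 0.1 in only 4, with a range of -0.362 to 0.381. The lowest was of cUA 1B and control 1B, which are in different sets. This check thus mixes letter with set and cannot settle whether letters are pairs, and the main test did not take them as pairs. Best matched by the control of their own letter were 3 cUA libraries in colony 2 and 1 in colony 1. For the difference of the cUA effect between labelled colonies, called for 0 models, DESeq2 called 227, limma-voom 321 and the fits without a library 0 to 92. Between cUA and cGAMP, again 0, DESeq2 called 103 and limma-voom 2836. The 24 models described one by one were chosen for a call in every fit without a library and the same sign in both colonies, so those fits say nothing of their stability. Of their 447 values under the other alternatives 19 lost the call, all in a single colony or set. Under about 1 CPM the counts limit how far the size of a fall can be read.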
